A study of Mus musculus with 12 samples.

Results

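The mesenchymal transition factors are a small set of transcription factors, and 7 of them were followed here in mouse osteosarcoma cells: Snai1, Snai2, Twist1, Twist2, Zeb1, Zeb2 and Prrx1. They were taken by gene name, and every probe of the array whose accession belongs to 1 of them was used. This gave 9 probes among the 26581 probes that could be assigned to 20144 genes, 1 for each gene and a second one for Zeb2 and Prrx1. The cells were the line Dunn, a low metastatic mouse osteosarcoma line of osteoblastic type, and LM8, a derivative of Dunn that was selected in mice for metastasis. Untreated cells of each line were harvested at an early and a late passage, Dunn at passages 25 and 86 and LM8 at passages 24 and 91. Each of these 4 groups was measured on 3 one-colour Agilent arrays with RNA from independent replicates. The labels do not say at which step the replicates were separated, so the p-values measure the spread between these arrays. All groups share the culture medium and the Dunn origin. Each is 1 line at 1 passage, grown from frozen stocks, so that a difference between groups describes these stocks.

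Snai1 and Snai2 (Slug) are zinc finger repressors that bind E-boxes, short DNA motifs in the promoters of epithelial genes such as that of E-cadherin. Zeb1 and Zeb2 are larger repressors with zinc finger clusters that recognise the same kind of motif. Twist1 and Twist2 are basic helix-loop-helix factors, and Prrx1 is a paired-related homeobox factor of limb and craniofacial mesenchyme. In carcinoma these genes are known as drivers of the epithelial to mesenchymal transition. Osteosarcoma cells derive from mesenchyme, where the same genes have roles in the development of bone, with Twist1 and Twist2 known as inhibitors of osteoblast differentiation.

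Values are log2 signals relative to the 75th percentile of the array, called level below, and a level of 0 is therefore the signal that 75% of the probes of an array do not exceed. Levels of different genes cannot be compared, since probes differ in brightness. A gene passed when its adjusted p was under 0.05 in the 2-group analysis of limma, adjusted by Benjamini-Hochberg over all probes. The scanner software marks spots well above background, and such spots made up 39.4% to 59.8% of the probes of an array. Early Dunn arrays were the dimmest, with 39.4% to 51.4%, compared with 53.3% to 59.8% in the other groups. Their 75th percentile was a signal of 253 to 522, compared with 610 to 1699. On slide 1, both Dunn arrays had a raised floor, with a lowest signal of 6.24 and 7.28 compared with 1.90 to 3.33 on the other 10 arrays. The lowest value a dim probe can take was therefore higher on these arrays. As a level, the dimmest signal still well above background was -3.39 on early Dunn and -4.19 on late Dunn of slide 1. It was -4.50 on early Dunn of slide 3 and -5.63 to -7.05 on the other arrays, with -6.11 to -7.05 in LM8. Of the osteoblast markers, 8 of 8 measured genes were well above background on all 12 arrays, among them Runx2 and Sp7. Of the 5 epithelial markers none was, and Cdh1 and Krt8 were not well above background on any array. With the scaling used, the median over all 20143 genes tested was 0.68 lower in LM8 than in Dunn cells on the log2 scale, and 0.35 lower over the 9542 genes well above background on all arrays. After quantile normalization this shift was -0.17, after normexp background correction -0.88 and in the unscaled deposited signals 0.50.

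Promoter sequences of RefSeq (assembly GRCm38.p6, 250 bases before to 50 bases after the start) were matched by symbol for 5 of the 7 factors, all but Snai2 and Zeb1. The windows of the genes with the clearest difference between the lines, Snai1, and between passages, Twist2, are shown. Snai1 lies at chr2:167537945-167538244 on the plus strand, where capitals mark the motif CACCTG. Twist2 lies at chr1:91801211-91801510 on the plus strand, where capitals mark each CG.
Snai1: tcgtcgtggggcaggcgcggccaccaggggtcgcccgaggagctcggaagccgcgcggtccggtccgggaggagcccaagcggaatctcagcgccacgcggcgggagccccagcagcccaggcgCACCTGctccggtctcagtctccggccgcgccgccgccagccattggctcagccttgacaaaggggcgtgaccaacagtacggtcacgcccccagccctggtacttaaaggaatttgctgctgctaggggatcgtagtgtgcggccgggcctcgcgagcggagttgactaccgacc
Twist2: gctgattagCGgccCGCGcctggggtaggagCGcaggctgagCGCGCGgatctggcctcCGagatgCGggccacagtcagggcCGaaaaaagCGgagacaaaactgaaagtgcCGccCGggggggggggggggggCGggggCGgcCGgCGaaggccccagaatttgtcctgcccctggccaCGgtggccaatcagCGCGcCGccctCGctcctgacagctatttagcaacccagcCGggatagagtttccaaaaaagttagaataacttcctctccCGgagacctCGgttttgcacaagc
CACCTG, the E-box that the SNAI and ZEB factors recognise, was searched on both strands. It belongs to the wider E-box family CANNTG. Among the windows of the 5 matched factors, only that of Snai1 held it, at position -126 from the start, and 20.2% of all 32851 promoter windows hold it as well. The Snai1 window had 34 CG and that of Twist2 25 CG, compared with a median of 7 over all windows, and 7.73% and 18.4% of all windows have as many or more. Twist1 was similar with 27 CG, whereas Prrx1 had 6. The arrays measure neither binding nor methylation, so these windows describe the genes only.

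Comparing the parental with the metastatic line addresses which of the factors differ between these stocks. Metastatic potential and other differences between the lines cannot be told apart here. With passages pooled, Snai1 was lower in LM8 cells and Twist1 and Prrx1 were higher, thus 3 of the 7 factors passed. Over all genes tested, 44.6% passed in this comparison, 5.48% higher and 39.1% lower in LM8, so that a gene higher in LM8 was less frequent than a lower one. This split depended on the scaling, with 1103 of 8985 genes higher as scaled here, 1115 of 4104 after quantile normalization and 4696 of 4996 in the unscaled signals. The directions of Snai1, Twist1 and Prrx1 were the same under each of these scalings. The median difference of the 7 factors was 0.07, compared with -0.68 over all genes. This median is the value of Zeb1, which was well above background in early LM8 cells only. It therefore does not set the factors apart from other genes.

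Snai1 showed the clearest separation of the lines. In early Dunn cells its level was -0.86, -0.89 and -0.87 on the 3 arrays, and in late Dunn cells -0.77, -0.79 and -1.05. LM8 cells gave -3.30, -4.03 and -4.28 at early and -5.63, -5.38 and -4.14 at late passage. All 12 spots were well above background, and every LM8 array lay below every Dunn array. The LM8 levels were only 0.74 to 2.96 above the dimmest signal still well above background on their arrays. This limits the precision of a fold. With passages pooled, Snai1 was 12.03-fold lower in LM8 (log2 difference -3.59, standard error 0.35, limma adjusted p = 4.25e-05). Within slides 1, 2 and 3 the difference was -3.65, -3.87 and -3.25. In these bulk samples, fewer cells that express a gene and less RNA per cell cannot be told apart.

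The 4 comparisons of single passages, in which each LM8 passage is set against each Dunn passage, gave the same direction for Snai1, from -2.997 to -4.18, with limma adjusted p-values up to 0.0141. Of all genes 307, or 1.53%, passed in all 4 comparisons in the same direction, and Snai1 was the only 1 of the 7 factors among them. These comparisons share arrays and are not independent. With the slide as a block, the adjusted p of Snai1 was 0.054 for early LM8 versus early Dunn, 0.0999 for the late passages and 0.105 for early LM8 versus late Dunn, whereas late LM8 versus early Dunn (adjusted p = 0.00221) and the pooled comparison (adjusted p = 2.46e-04) passed. Early and late Dunn cells had the same level, with a difference of 0.0029 (95% confidence interval -0.68 to 0.69). In LM8 the late cells were lower by 1.18 on average (difference -1.18, unadjusted p = 0.036, adjusted p = 0.293 in limma), but their range overlapped with that of the early cells. The order was thus both Dunn groups first and then early and late LM8 cells, with no neighbours that differed within a line.

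**Figure D1:**
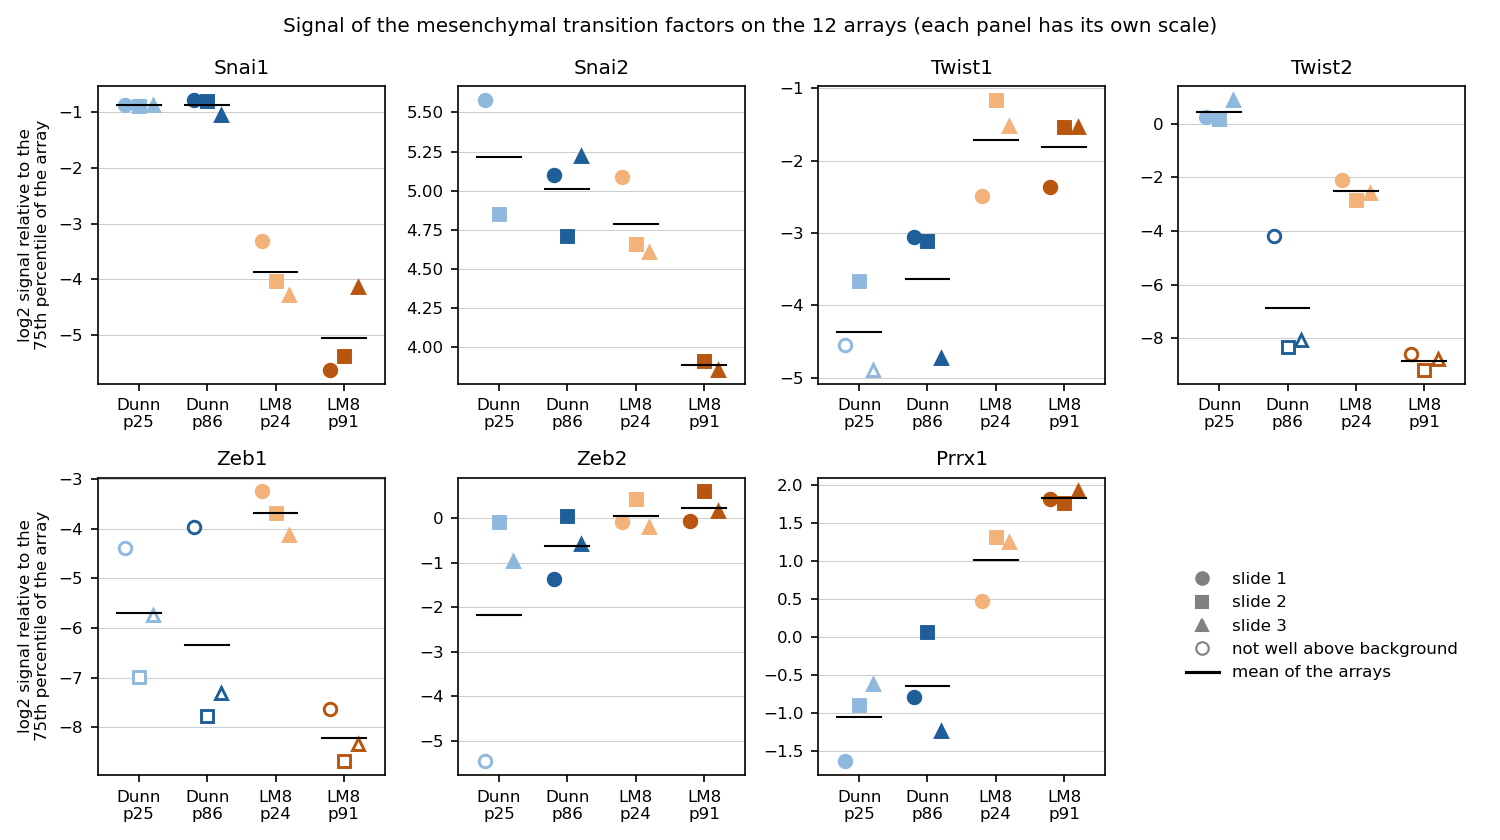
Level of each factor (log2 signal relative to the 75th percentile of the array, first probe of each gene, y axis) on the 12 arrays by line and passage (x axis), with the slide as the marker, open markers for spots not well above background and a line for the mean of the group. Snai1 sits between -0.77 and -1.05 on the 6 Dunn arrays and below -3 on the 6 LM8 arrays, and Twist2 is open on all late passage arrays of both lines.

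Twist1 went the other way. In early Dunn cells its level was -4.55, -3.67 and -4.89, with 1 of the 3 spots well above background. In late Dunn cells it was -3.05, -3.12 and -4.72, and all spots of this and the LM8 groups were well above background. LM8 cells had -2.49, -1.16 and -1.52 at early and -2.37, -1.54 and -1.54 at late passage. Again the 6 LM8 and the 6 Dunn arrays did not overlap. Twist1 was 4.70-fold higher in LM8 (log2 difference 2.23, standard error 0.39, limma adjusted p = 0.00268), and within the slides by 1.37, 2.05 and 3.28. After normexp background correction, which adds an offset and compresses dim signals, this difference was 0.57 (limma adjusted p = 0.134). Of the single passages, early LM8 versus early Dunn (2.65, adjusted p = 0.0399) and late LM8 versus early Dunn (2.56, adjusted p = 0.0159) passed. The difference was 1.81 between the late passages (adjusted p = 0.176) and 1.91 between early LM8 and late Dunn cells (adjusted p = 0.273), >2-fold at an unadjusted p under 0.05 in both. With the slide as a block, the comparison of the early passages had an adjusted p of 0.0744. Within the lines the passages did not pass, with differences of 0.74 in Dunn (adjusted p = 0.767) and -0.09 in LM8 (adjusted p = 0.909).

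Prrx1 was also higher in the metastatic line. The level of its first probe was -1.63, -0.89 and -0.62 in early and -0.78, 0.07 and -1.23 in late Dunn cells. In LM8 cells it was 0.47, 1.31 and 1.24 at early passage and 1.82, 1.76 and 1.91 at late passage. All spots were well above background and the lines did not overlap. The pooled difference was 2.27, or 4.81-fold (standard error 0.32, limma adjusted p = 0.000755), and within the slides 2.35, 1.95 and 2.50. It passed in 3 of the 4 comparisons of single passages, with 2.06 for the early passages (adjusted p = 0.0483), 2.48 for the late passages (adjusted p = 0.0363) and 2.88 for late LM8 versus early Dunn (adjusted p = 0.00607). Early LM8 versus late Dunn gave 1.66 (adjusted p = 0.194). Late LM8 cells were the highest group and did not overlap with early LM8 cells, but their difference of 0.82 did not pass (adjusted p = 0.254). With the slide as a block the calls for the early and the late passages were lost (adjusted p = 0.0815 and 0.149 in limma).

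The second probe of Prrx1, designed on another RefSeq transcript of the gene, had a different pattern. Its level was -3.65, -2.92 and -4.90 in early Dunn cells, with 1 of 3 spots well above background, and -0.90, -0.82 and -0.20 in late Dunn cells. LM8 cells gave -0.51 and 0.22 at early passage, where the spot on slide 1 was left out as an outlier, and -0.98, -0.37 and -0.60 at late passage. Thus only early Dunn cells stood apart on this probe. Between the late passages its difference was -0.01 (95% confidence interval -0.78 to 0.77), and between the early passages it was 3.68 (limma adjusted p = 0.0458). Late Dunn cells were 3.18 above early ones (unadjusted p = 0.00182, limma adjusted p = 0.394). The change with passage was -0.50 in LM8, and the test of the difference between the lines gave -3.69 (unadjusted p = 7.27e-04, limma adjusted p = 0.107). With passages pooled, LM8 minus Dunn was 1.79 on the second probe, which did not pass (limma adjusted p = 0.0797), and the lines overlapped. Both probes put early Dunn cells lowest, but the first probe did not separate early from late Dunn cells (difference 0.40, adjusted p = 0.853).

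**Figure D2:**
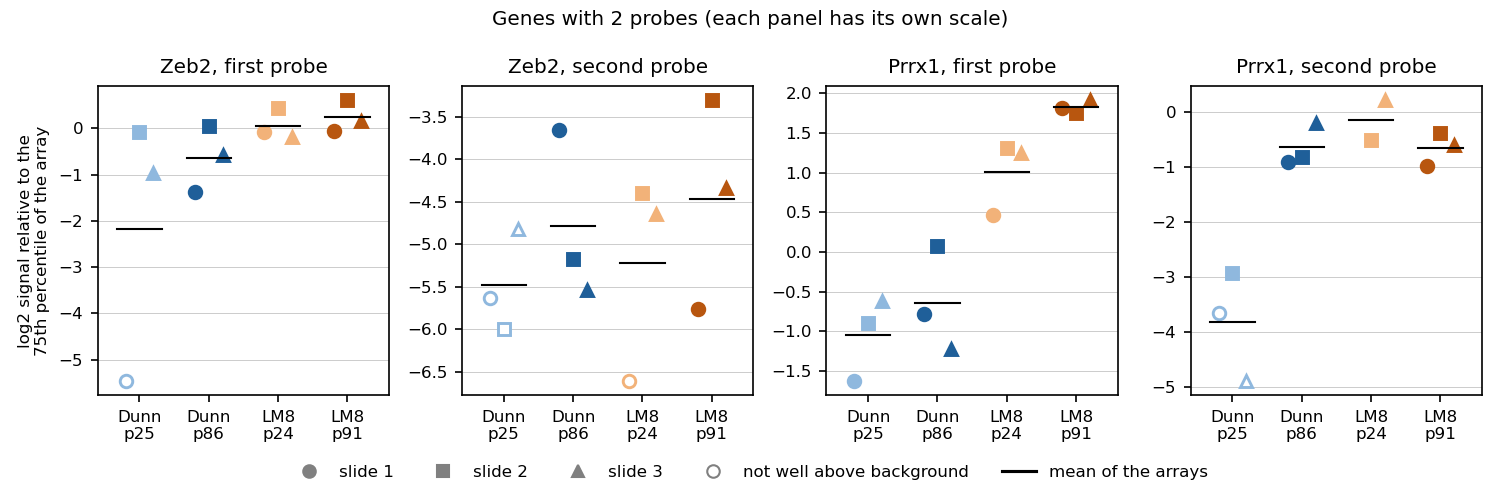
Levels (log2 signal relative to the 75th percentile, y axis) of the 2 probes of Zeb2 and of Prrx1 on the arrays by line and passage (x axis), with symbols as in the plot of all factors. The second probe of Prrx1 is low in early Dunn cells alone, between -2.92 and -4.90, while the first one separates LM8 from Dunn.

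Comparing late with early passage cells addresses the stability of expression in culture. In LM8 cells 2 of the 7 factors passed, Twist2 and Zeb1, both lower at late passage, compared with 2.79% of all genes. In Dunn cells none of the 7 passed in limma, against 0.00497% of all genes, a single gene, and 1 of the 7 had an unadjusted p under 0.05. At >2-fold and an unadjusted p under 0.05, 1 factor changed in Dunn, Twist2, and 3 changed in LM8, the same 2 and Snai1, each time lower at late passage. By this rule 4.97% of all genes changed in Dunn and 7.37% in LM8.

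Twist2 had the largest range of the 7 factors. In early Dunn cells its level was 0.25, 0.20 and 0.91, and in late Dunn cells -4.19, -8.33 and -8.07, where no spot was well above background. Early LM8 cells had -2.09, -2.85 and -2.58, all well above background, and late LM8 cells -8.59, -9.19 and -8.79, none of them well above background. In both lines the early and late arrays did not overlap. Since the late signals were not well above background, the changes are bounds. For a bound, the dim spot was replaced by the dimmest signal that still counted as well above background on its array, unless the spot itself was brighter, and group means were compared. Twist2 was at least 18.2-fold lower in late than in early LM8 cells (measured difference -6.35, standard error 0.28, limma adjusted p = 2.73e-04). In Dunn cells it was at least 60.9-fold lower (measured difference -7.32, standard error 1.17, unadjusted p = 9.35e-04, limma adjusted p = 0.339).

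The Dunn value of Twist2 depended on late Dunn replicate 1, 1 of the arrays with a raised floor. Without this array the difference was -8.65 (adjusted p = 0.0138 in limma), and without all arrays of slide 1 it was -8.75 (adjusted p = 6.76e-04). Quantile normalization gave -7.88 (adjusted p = 0.00696), and the slide as a block left the adjusted p at 0.20. Within slides 1, 2 and 3 the Dunn difference was -4.44, -8.53 and -8.98, and that of LM8 -6.49, -6.34 and -6.20. Since both late groups were not well above background and both falls are bounds, whether the change of Twist2 differed between the lines cannot be read from these data. Early cells of the lines differed as well. Early LM8 cells were 7.78-fold lower in Twist2 than early Dunn cells (difference -2.96, limma adjusted p = 0.00999, and 0.0579 with the slide as a block). Late LM8 cells were at least 141-fold lower than early Dunn cells, whereas the late groups were both not well above background and no fold can be given. Early LM8 cells were above late Dunn cells on every array, by at least 7.83-fold (measured difference 4.36, limma adjusted p = 0.194). The order was thus early Dunn, early LM8 and then the late groups.

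Zeb1 was measurable in 1 group only. Early LM8 cells had a level of -3.24, -3.68 and -4.12, with 3 of 3 spots well above background. The other groups had no spot well above background, with -4.38, -6.98 and -5.74 in early Dunn, -3.97, -7.76 and -7.30 in late Dunn and -7.63, -8.69 and -8.33 in late LM8 cells. The late Dunn array of slide 1 reached into the range of early LM8 cells. With passage Zeb1 was at least 8.07-fold lower in LM8 (measured difference -4.54, standard error 0.35, limma adjusted p = 0.0016). Normexp correction gave -1.08 (adjusted p = 0.118) and 1 fit over all 12 arrays left -4.54 at an adjusted p of 0.0653. Compared with early Dunn cells, early LM8 cells were at least 1.77-fold higher (measured difference 2.02, limma adjusted p = 0.074). The late LM8 cells passed as lower than the early Dunn cells (adjusted p = 0.0254), but neither group was well above background and no size can be given. Both Dunn groups were not well above background, so that no change with passage can be given for Zeb1 in Dunn, nor a difference of this change between the lines.

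**Figure D3:**
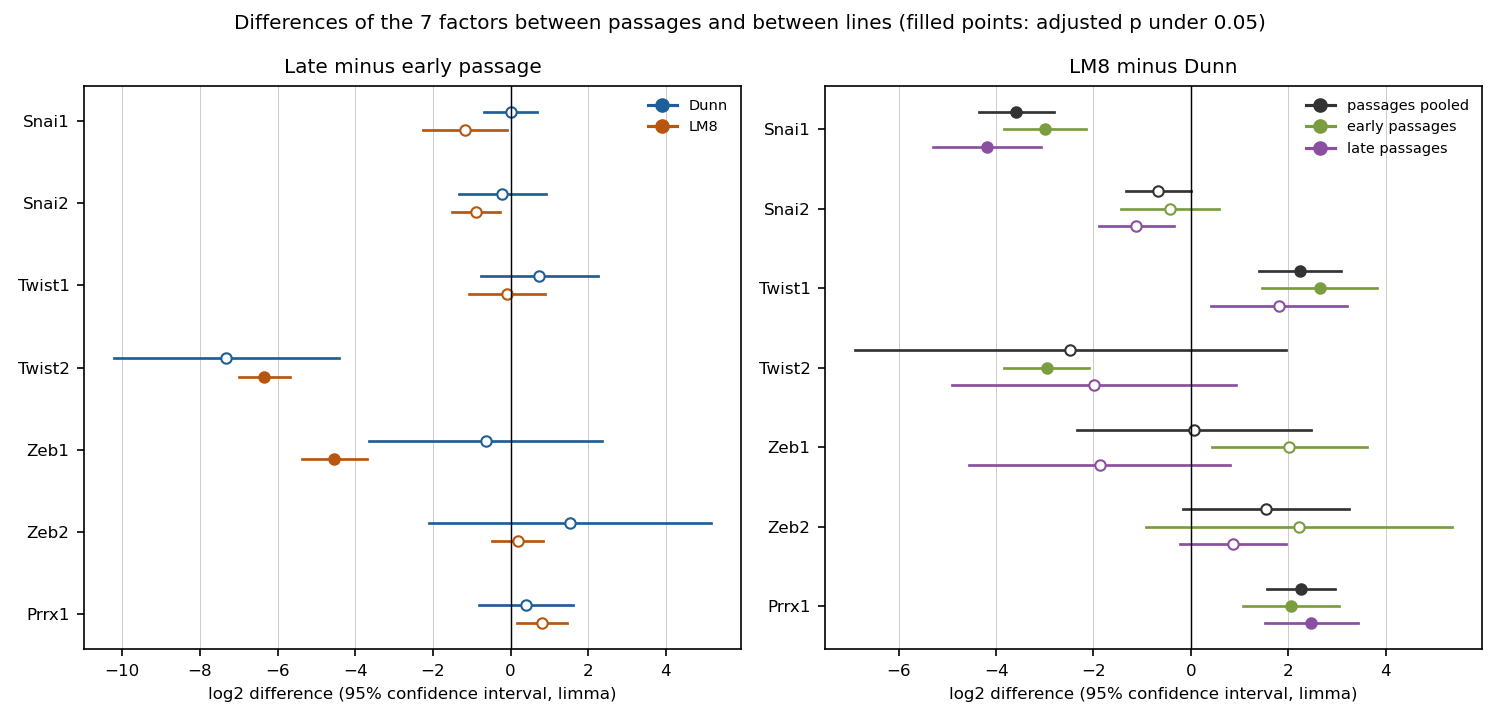
Differences of the 7 factors on the log2 scale (x axis) with 95% confidence intervals of limma, late minus early passage in each line (left) and LM8 minus Dunn (right). Colours give the line on the left, and on the right black stands for pooled, green for early and purple for late passages. Filled points passed at an adjusted p under 0.05, with Twist2 and Zeb1 of LM8 on the left, and Snai1, Twist1 and Prrx1 with passages pooled on the right. For Twist2 and Zeb1 the dim groups make the plotted differences measured values and not folds.

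Snai2 was bright in both lines and did not pass in any comparison. Its level was 5.58 and 4.85 in early Dunn, 5.10, 4.71 and 5.22 in late Dunn, 5.09, 4.66 and 4.61 in early LM8 and 3.92 and 3.86 in late LM8 cells. The single spot of this probe was left out as an outlier on slide 3 of early Dunn and slide 1 of late LM8, so that 2 arrays remain in these groups. The flagged spots read 5.67 and 5.63. Late LM8 was the lowest group, without overlap with the others on the arrays kept, but the flagged spot of late LM8 was above the highest value kept in any group. The pooled difference was -0.67 (95% confidence interval -1.33 to 0.00, limma adjusted p = 0.0873). The median was -0.68 over all genes and -0.35 over genes well above background on all arrays, as Snai2 was. Late versus early LM8 gave -0.90 (adjusted p = 0.207 in limma) and the late passages -1.12 (adjusted p = 0.152).

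Zeb2 did not pass either. Its first probe had -5.47, -0.07 and -0.97 in early Dunn, -1.37, 0.06 and -0.58 in late Dunn, -0.09, 0.44 and -0.20 in early LM8 and -0.06, 0.61 and 0.16 in late LM8 cells. Only the value of -5.47 was not well above background. The pooled difference was 1.55 (95% confidence interval -0.15 to 3.24, limma adjusted p = 0.115), and without slide 1 it was 0.65 (adjusted p = 0.153). Within the slides it was 3.35, 0.53 and 0.76. The second probe, on the same transcript accession, was dim, from -6.62 to -3.30, with 4 of 12 spots not well above background, and differed by 0.29 between the lines (adjusted p = 0.664).

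In the other comparisons of the lines, the number of factors that passed in limma was 4 of 7 for the early passages, Twist1 and Prrx1 higher and Snai1 and Twist2 lower in LM8, against 4.65% of all genes. For the late passages 2 passed, Prrx1 higher and Snai1 lower, against 3.85%. Early LM8 versus late Dunn had 1, Snai1, against 2.92%, and late LM8 versus early Dunn had 5, the 4 of the early passages and Zeb1, against 48.6% of all genes, although Zeb1 was not well above background in either group. With the slide as a block, the 4 calls of the early passages, the 2 of the late passages and the 1 of early LM8 versus late Dunn were all lost, and leaving out a single array, early LM8 replicate 2 or 3, also took the early passages from 4 to 0. None of the 7 passed the interaction of line and passage, which 0.616% of all genes did. At an unadjusted p under 0.05 and >2-fold, Zeb1 was the only one of the first probes in that test, with 3 of its 4 groups not well above background.

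Close relatives of the factors were followed as a list of 8 genes. With passages pooled, 1 was higher and 6 were lower in LM8, compared with 5.48% and 39.1% of all genes. Of the 6 lower ones only Scx and Hand1 were well above background on all arrays, while Hand2, Tcf15 and Msc were so on none and Snai3 on 1. The median of the list, -1.72 compared with -0.68 over all genes, thus rests mostly on dim signals. The higher one was Prrx2, the paralogue of Prrx1. Its level was -3.72, -3.94 and -4.64 in early Dunn, -5.68, -7.96 and -7.80 in late Dunn, 0.88, 0.77 and 0.23 in early LM8 and -2.39, -2.61 and -2.69 in late LM8 cells, so the lines did not overlap. In Dunn cells 1 of its 6 spots was well above background, and in LM8 cells all 6. Prrx2 passed as higher in LM8 with passages pooled (limma adjusted p = 0.00721), and at late passage it was at least 7.52-fold higher (adjusted p = 0.0295). Unlike Prrx1, it fell with passage in LM8, by 3.20 on the log2 scale (difference -3.20, limma adjusted p = 0.00144). Scx (scleraxis), a helix-loop-helix factor of tendon, differed by -3.28 (adjusted p = 0.00152), and Hand1, a helix-loop-helix factor of heart and limb, by -2.04 (adjusted p = 3.50e-04). Scx fell by 1.69 with passage in LM8 (difference -1.69, limma adjusted p = 0.0126). In Dunn cells no relative passed in limma, where a single gene of all did. The Dunn differences were -1.37 for Scx (unadjusted p = 0.046) and -3.05 for Prrx2 (unadjusted p = 0.0057). In late Dunn cells no spot of Prrx2 was well above background. Neither gene passed the interaction of line and passage (unadjusted p = 0.60 and 0.85 in limma). At an unadjusted p under 0.05, 2 relatives differed in Dunn and 3 in LM8, compared with 7.22% and 15.9% of all genes.

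Of 10 other factors linked to the mesenchymal transition, 2 were higher and 3 lower in LM8 with passages pooled. Of all genes 5.48% were higher and 39.1% lower. The median of these factors was 0.14, compared with -0.68 over all genes. Of the 10 factors 6 were well above background on all 12 arrays, and the median over all such genes was -0.35. Gsc (goosecoid), a homeobox factor of the early embryo, passed as higher (adjusted p = 0.00159), and at early passage it was at least 6.17-fold higher (adjusted p = 0.0147). Its level was -1.50 to -2.20 in early and -0.82 to -1.65 in late LM8 cells, and in Dunn it was well above background only on slide 1 at late passage. The forkhead factor Foxc2 was lower by 1.31 (difference -1.31, adjusted p = 0.0131) and the HMG-box factor Sox4 by 0.93 (difference -0.93, adjusted p = 0.0223). With passage, 1 of the 10 passed in LM8, compared with 2.79% of all genes. It was Fosl1, an AP-1 subunit, which fell by 2.14 (difference -2.14, limma adjusted p = 0.00251). In Dunn cells its difference was -1.65 (adjusted p = 0.503).

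The cofactors and regulators of turnover, 16 genes, had 2 higher and 3 lower members in LM8 with passages pooled. Over all genes 5.48% were higher and 39.1% lower. The median of the list was 0.15, compared with -0.68 over all genes. Of the 16 genes 14 were well above background on all 12 arrays, and the median over all such genes was -0.35. With passage none passed in either line, and 1 in LM8 and 2 in Dunn had an unadjusted p under 0.05, compared with 15.9% and 7.22% of all genes. Pak1, a kinase known to phosphorylate Snai1, was lower by 4.05 (difference -4.05, standard error 0.28, limma adjusted p = 2.08e-06), and its 12 spots were well above background. The F-box protein Fbxl14, which targets Snai1 for degradation, was lower by 0.70 (difference -0.70, limma adjusted p = 0.0169). Its spots were well above background on all 12 arrays. The median over such genes was -0.35, compared with -0.68 over all genes. Wtip, a LIM protein that binds SNAI factors, was higher by 0.76 (adjusted p = 0.0269) and the corepressor Ctbp2 by 2.23 (adjusted p = 0.0216), the latter on 10 arrays since 2 spots were left out as outliers, and with the late Dunn value of slide 2 (1.83) within the LM8 range.

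Of 19 epithelial target genes none was higher and 9 were lower in LM8 with passages pooled, or 47.4% compared with 39.1% of all genes. Higher in LM8 were 5.48% of all genes. The median of the list was -1.55, compared with -0.68 over all genes. Only 1 of the 19 genes had every spot well above background, and 6 had no such spot. This median thus rests mostly on dim signals. Of the 9 lower ones 1, Ovol2, was well above background on all 12 arrays and 5 on none. Cdh1 (E-cadherin), the best known target of the SNAI and ZEB repressors, was not well above background on any array in either line, and the same holds for Krt8 and Ocln, so no fold can be given. Dsp and St14 also passed as lower (adjusted p = 0.0366 and 0.0053), with 1 and 6 of 12 spots well above background, so that no size is given. No epithelial gene passed with passage in either line, where 5 in LM8 and 0 in Dunn had an unadjusted p under 0.05, compared with 15.9% and 7.22% of all genes.

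Of the 15 mesenchymal target genes 2 were higher and 6 lower in LM8 with passages pooled, compared with 5.48% and 39.1% of all genes. The 6 lower ones were 40% of the list, thus close to the share of all genes. The median of the list was -0.19, compared with -0.68 over all genes. Of the 15 genes 10 were well above background on all 12 arrays, and the median over all such genes was -0.35. Vim (vimentin), an intermediate filament protein of mesenchymal cells, was bright on the 11 arrays with a value, from 3.88 to 4.94, and did not differ between the lines beyond their spread (difference -0.20, 95% confidence interval -0.67 to 0.27, adjusted p = 0.45 in limma). Cdh2 (N-cadherin) was well above background on all 6 LM8 arrays, with -1.59, -2.06 and -1.83 at early and -3.47, -3.69 and -4.07 at late passage, and in Dunn only on slide 1 of the late passage (-1.59). It passed as higher in LM8 with passages pooled (adjusted p = 0.0363) and was at least 6.39-fold higher at early passage (adjusted p = 0.0304), whereas at late passage it did not pass (adjusted p = 0.458) and on slide 1 the late Dunn value was above the late LM8 value. With passage Cdh2 fell by 1.91 in LM8 (difference -1.91, adjusted p = 0.0112). Mmp2, a matrix metalloproteinase, was higher by 3.06 in LM8 (standard error 0.18, adjusted p = 4.58e-07), with 3.07, 3.10 and 3.02 within the slides. Fbn1 (fibrillin) was the largest difference of the list. Its level was -0.38 to 1.98 in Dunn cells and not well above background in LM8 cells, which were at least 141-fold lower at early passage (limma adjusted p = 3.75e-04) and at least 231-fold lower at late passage (adjusted p = 0.0033).

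Acta2, smooth muscle actin, differed with line and passage. Its level was 7.57 and 7.72 in early Dunn cells, where 1 spot was left out as an outlier, and 5.90, 5.69 and 6.36 in late Dunn cells. In LM8 cells it was 4.89, 3.71 and 4.70 at early and 0.95, -0.13 and 0.36 at late passage. Acta2 fell by 4.04 with passage in LM8 (difference -4.04, standard error 0.41, limma adjusted p = 0.00451), and the pooled difference between the lines was -4.23 (adjusted p = 0.0147). In Dunn cells the passage difference was -1.66 (unadjusted p = 0.00916, limma adjusted p = 0.621). In total 3 of the 15 mesenchymal genes passed as lower with passage in LM8, compared with 2.79% of all genes. None passed in Dunn, where only 1 of all genes did, so these counts do not set the lines apart. Besides Acta2 and Cdh2 the list included S100a4, which was lower at late passage in both lines. Its difference was -2.37 in LM8 (limma adjusted p = 0.0200) and -1.86 in Dunn (unadjusted p = 0.00229, limma adjusted p = 0.414). The interaction of S100a4 was -0.52 (unadjusted p = 0.33). The cadherin Cdh11 passed as lower in LM8 with passages pooled (adjusted p = 0.036), with no LM8 spot and 3 of 6 Dunn spots well above background. It was at least 9.59-fold lower at early passage (adjusted p = 0.00282), and did not pass at late passage (adjusted p = 0.337).

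**Figure D4:**
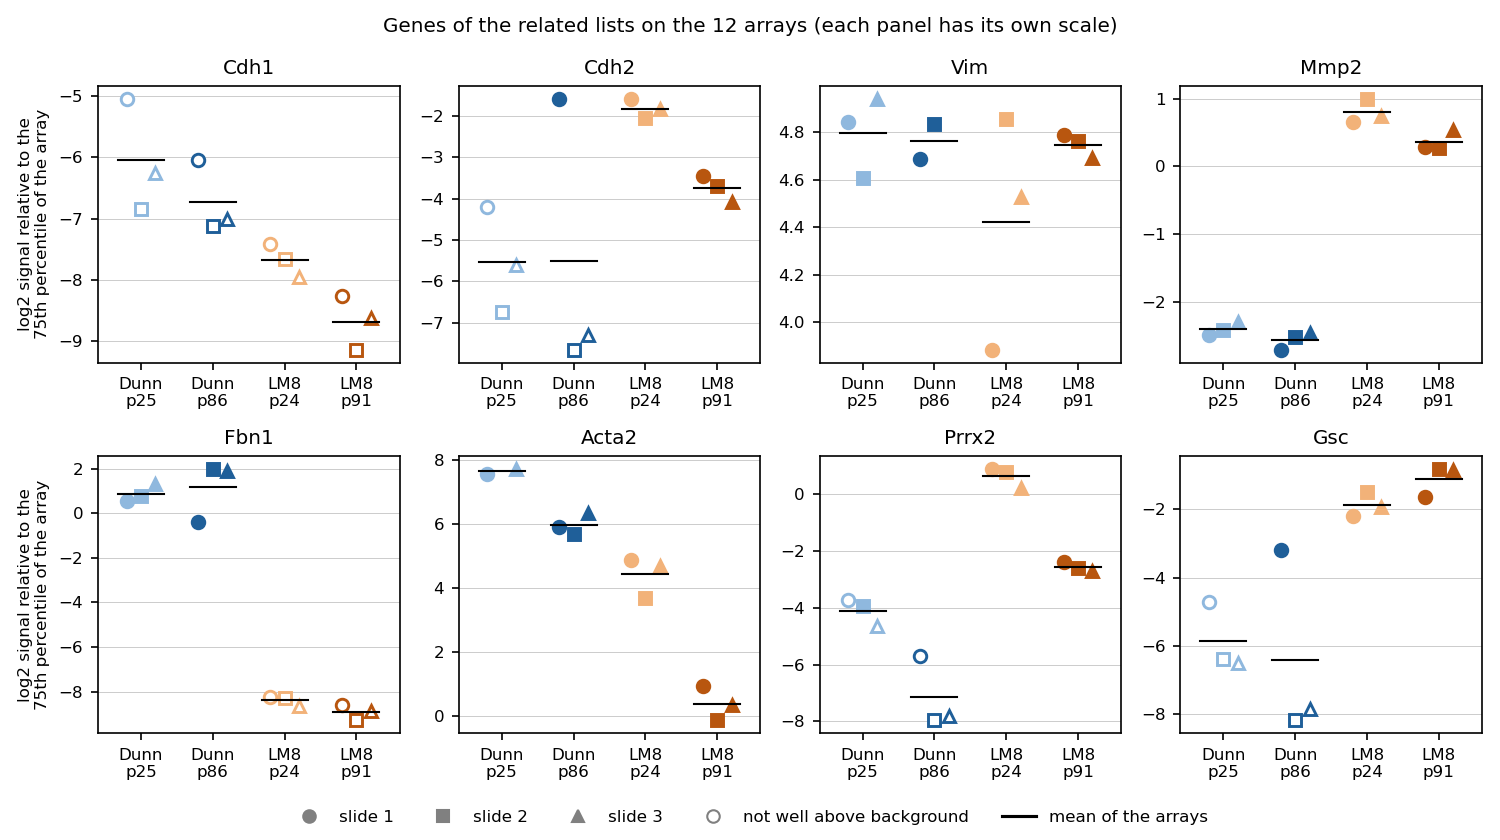
Levels (log2 signal relative to the 75th percentile, y axis) of 8 genes of the related lists on the 12 arrays by line and passage (x axis), with symbols as in the plot of all factors. Cdh1 is open on all 12 arrays, Vim lies between 3.88 and 4.94, Mmp2, Prrx2 and Gsc are higher in LM8, and Fbn1 and Acta2 are lower.

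Genes with the pattern most like that of each factor were listed by the root mean square difference of the values over the arrays, each gene centred on its own mean, among 11293 genes well above background on all arrays of at least 1 group. For Snai1 they were Podnl1, Odf3l1 and Atp9a, with root mean square differences of 0.45 to 0.46 compared with a standard deviation of 1.97 for Snai1 itself. Prrx1 was nearest to Aspg, Fhdc1 and Phax (0.43 to 0.45, standard deviation 1.299) and Twist1 to Tmem219, Ccni and Ajm1 (0.43 to 0.50, standard deviation 1.34). For Twist2 the nearest were Col4a2, a collagen of basement membranes, Amdhd2 and Lxn, at the wider differences of 1.26 to 1.60 (standard deviation 3.94). No late passage spot of Twist2 was well above background in either line, so this likeness rests in part on dim readings. Zeb1 was nearest to Slc47a1, Krt71 and Nsg1 (0.37 to 0.46, standard deviation 2.01), but 9 of its 12 spots were not well above background, so that this likeness rests mostly on dim readings. Zeb2 was nearest to Ctnnb1, Cdkn1b and Txndc9 (0.39 to 0.44, standard deviation 1.62), a pattern whose lowest value is that of early Dunn replicate 1. Snai2 was compared over 10 arrays, with 11294 genes, and was nearest to Vit, Tor1aip1 and Il27 (0.14 to 0.17, standard deviation 0.55).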

How the data were processed

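Total RNA of mouse Dunn and LM8 cells at an early and a late passage was hybridised as Cy3-labelled cRNA to 12 Agilent mouse 4x44K arrays, 3 per group, on 3 slides that each hold 1 array of every group. The authors deposited the Feature Extraction 10.7.3 output, whose processed signal is a background-subtracted intensity with no scaling between arrays, and a table of all arrays with the same intensities, rounded. For the RNA extraction the labels name RNeasy and the methods TriReagent.

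The 43020 spots that are no controls, less those marked as outliers by the software, gave 39429 probes after replicate spots were averaged. Log2 signals were scaled by subtracting the 75th percentile of each array. Accessions of 26581 probes (67.4%) were matched to genes of RefSeq (GRCm38.p6), and the probe with the highest mean signal represents a gene. For group comparisons, lmFit and eBayes of limma 3.58.1 were run in R 4.3.3 (two-sided, only the arrays of the groups compared, no block), with Benjamini-Hochberg adjustment over probes. A fit with array values missing uses the remaining arrays. Steps were tested on simulated data. Figures were drawn with matplotlib 3.10.9. The number of arrays limits the precision.

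The members and gene lists were chosen with earlier results of these data known. Named from a list were at most 4 genes with the largest change among those that passed in a passage comparison or in the pooled comparison of the lines, and Cdh1, Cdh2 and Vim. Genes alike in pattern were the 3 with the smallest root mean square difference. Replicate numbers equal slides. Deviations from group means correlated at -0.231 to 0.683 between arrays of the same slide, over 0.1 in all 3 pairs of early and late Dunn arrays but not in all of LM8, and the slide was fitted as a block as an alternative. Other alternatives were normexp background correction (offset 50, on median signals, since the files hold no mean signals), quantile normalization, the unscaled deposited table, a filter on dim probes, 1 fit over all 12 arrays, array quality weights, the methods' t-test, the mean of a gene's probes and leaving out each array. Keeping flagged spots and leaving out slide 1 were chosen after the values were seen.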

Additional observations from a re-analysis of the deposited data

How the results depend on the processing

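With passages pooled, Snai1 stayed lower in LM8 and past the threshold under every alternative and with each array left out. Prrx1 likewise stayed higher and past the threshold, by its first probe or the mean of its probes. The second probe of Prrx1 alone did not pass (difference 1.79, limma adjusted p = 0.0797). Twist1 kept its direction and lost the call after normexp correction only (0.57, limma adjusted p = 0.134). Twist2 of LM8 stayed lower at late passage and past the threshold in all alternatives with a value, and Zeb1 of LM8 lost the call after normexp correction and with 1 fit over all 12 arrays. The scalings moved the median difference of all genes between the lines from -0.68 to -0.17 (quantile normalization), -0.88 (normexp correction) and 0.50 (unscaled deposited table). The causes of the changes below were not tested. Twist2, Zeb1 and Cdh1 are limited by signal over background in the groups where they were not well above it.

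Changes in the number of factors that passed are given here in part. For late LM8 versus early Dunn only the block and the arrays left out are covered. The unscaled deposited table, where 3 results became stronger and 3 weaker, is not covered. Late versus early Dunn went from 0 to 1 after quantile normalization, over probes well above background, with 1 fit over all 12 arrays and with slide 1 left out. With array quality weights it went to 2. Late versus early LM8 went from 2 to 1 after normexp correction and with 1 fit over all 12 arrays. The pooled comparison of the lines went from 3 to 5 with 1 fit over all 12 arrays. Early LM8 versus early Dunn went from 4 to 0 with the slide (the replicate block) and to 2 with the methods' t-test. Late LM8 versus late Dunn went from 2 to 0 with the replicate block, to 1 with the mean of a gene's probes and with the methods' t-test, and to 7 with array quality weights. Early LM8 versus late Dunn went from 1 to 0 with the replicate block, to 3 after quantile normalization, with 1 fit over all 12 arrays and with slide 1 left out, and to 6 with array quality weights. The interaction went from 0 to 2 after quantile normalization and with array quality weights, where the 2 after quantile normalization were Twist2 and Zeb1, whose late groups were not well above background. With 1 array left out at a time, the counts ranged from 0 to 1 for Dunn passages, 2 to 2 for LM8 passages, 3 to 4 for the pooled lines, 0 to 4 for the early passages, 0 to 2 for the late passages, 0 to 3 for early LM8 versus late Dunn, 2 to 7 for late LM8 versus early Dunn and 0 to 0 for the interaction. Some or all calls of the early passages ended without early Dunn replicate 1 or 3 or any 1 early LM8 array, those of the late passages without late Dunn replicate 3 or any 1 late LM8 array, that of Snai1 in early LM8 versus late Dunn without replicate 2 or 3 of either group, and those of Twist1, Zeb1 or Prrx1 in late LM8 versus early Dunn without early Dunn replicate 3 or any 1 late LM8 array. Over all genes, the pooled count of 8985 was 4104 after quantile normalization, and that of 1 for Dunn passages was 65. Late LM8 versus early Dunn could not be fitted for Snai2 with the block. For the interaction, the methods' t-test and the fit over all 12 arrays were not run, since the first compares 2 groups and the second is the fit itself. No other call was changed by the block except Zeb2 in late LM8 versus early Dunn, which passed (2.41, adjusted p = 0.0487).

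Changes of sign concerned differences that had not passed. After normexp correction they were, for late versus early Dunn, Snai1 (-0.18), Snai2 (0.28) and Twist1 (-0.71), for LM8 versus Dunn Zeb1 (-0.86), for early LM8 versus early Dunn Snai2 (0.36) and Zeb1 (-0.88), for early LM8 versus late Dunn Snai2 (0.081), and for the interaction Twist1 (0.60) and Zeb1 (0.043). In the unscaled table they were Snai2 (0.52) and Zeb1 (0.33) with Dunn passage, Twist1 (0.29) with LM8 passage, Prrx1 (-0.17) in the interaction, and Snai2 in the pooled lines (0.35), the early passages (0.81), early LM8 versus late Dunn (0.28) and late LM8 versus early Dunn (0.46). Quantile normalization turned Snai1 with Dunn passage (-0.042). Array quality weights turned Snai1 (-0.16) and Prrx1 (-0.51) with Dunn passage and Twist1 (0.16) with LM8 passage. The mean of a gene's probes turned Prrx1 in the interaction (-1.74), and leaving out slide 1 turned Snai1 (-0.041) and Snai2 (0.11) with Dunn passage and Zeb2 in the interaction (0.0021). With 1 array left out at a time, the ranges of the differences that changed sign were -0.046 to 0.093 for Snai1 in late versus early Dunn, -0.57 to 0.16 for Snai2 in late versus early Dunn, -1.83 to 0.066 for Zeb1 in late versus early Dunn, -0.11 to 2.59 for Zeb2 in late versus early Dunn, -0.48 to 0.19 for Twist1 in late versus early LM8, -0.0023 to 0.38 for Zeb2 in late versus early LM8, -0.47 to 0.62 for Zeb1 in LM8 versus Dunn, passages pooled, -2.40 to 0.30 for Zeb2 in line by passage interaction.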
